A study of Homo sapiens with 17 samples.

Results

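SHOX2-GFP+ mCherry+ cells (GFP+mCherry+) were compared with SHOX2-GFP- mCherry+ cells (GFP-mCherry+), both sorted at day 25 of directed differentiation from a reporter line on the background of H9, an established human embryonic stem cell line. The comparison used 6 of the 17 RNA-seq libraries of the study, the GFP+mCherry+ libraries 1, 4 and 7 and the GFP-mCherry+ libraries 2, 5 and 8. Of the 20218 genes of the deposited table it took the 14022 that reached at least 1 FPKM (a level scaled by gene length and library size) in at least 2 of these 6 libraries. GFP stands for SHOX2 in the labels, which do not name the gene behind mCherry or say whether the line is 1 clone. Every library carries the same cell type label, sinoatrial-node-like cells from pluripotent stem cells, whatever its reporters. The cultures began in CHIR99021, BMP4 and Activin A. A cardiomyocyte arm then received XAV939, and a sinoatrial arm received cucurbitacin, retinoic acid, SU5402, XAV939, Tyrphostin AG 490 and chidamide. The labels do not say which arm gave each sorted population, so the reporter state and the culture arm cannot be told apart. The GFP-mCherry- libraries 3, 6 and 9 of day 25, which carry neither reporter, are given beside them as a further level. At day 40 there were 2 GFP+mCherry+ libraries (10 and 13) and 3 GFP-mCherry+ libraries (11, 14 and 17).

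The sinoatrial node is the pacemaker of the heart. Its myocytes depolarize by themselves through a hyperpolarization-activated current and a calcium clock, contract weakly, and are coupled less tightly than the working myocytes of atrium and ventricle. In mouse, Shox2 is needed for the node and holds back Nkx2-5, the cardiac homeobox factor of the working chambers, while Tbx3 represses chamber genes and Isl1 and Tbx18 act in the node's formation and growth. In bulk libraries a lower value can mean fewer cells of a type or less RNA per cell, and these cannot be told apart.

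NPPA and VCAM1 were lower in GFP+mCherry+ than in GFP-mCherry+ cells. Their promoters and those of SHOX2 and of the cardiac myosin gene MYH6 are shown as examples. Each is the stretch of 200 bases before the gene's start in RefSeq (GRCh38.p14), read 5′ to 3′ on the strand of the gene, with TATAAA, searched on both strands, in capitals.
SHOX2, chr3:158106164-158106363, minus strand: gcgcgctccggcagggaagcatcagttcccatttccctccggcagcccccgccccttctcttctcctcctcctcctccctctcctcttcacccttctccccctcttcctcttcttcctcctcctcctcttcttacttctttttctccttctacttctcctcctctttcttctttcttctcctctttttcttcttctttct
MYH6, chr14:23408274-23408473, minus strand: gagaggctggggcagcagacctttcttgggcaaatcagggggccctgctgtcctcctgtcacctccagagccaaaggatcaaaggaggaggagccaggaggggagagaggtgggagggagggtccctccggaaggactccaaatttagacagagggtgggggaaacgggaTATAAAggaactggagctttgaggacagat
NPPA, chr1:11847784-11847983, minus strand: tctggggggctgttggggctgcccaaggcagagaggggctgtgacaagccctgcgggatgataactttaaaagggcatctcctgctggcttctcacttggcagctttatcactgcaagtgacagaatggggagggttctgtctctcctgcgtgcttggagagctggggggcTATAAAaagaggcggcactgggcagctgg
VCAM1, chr1:100719542-100719741, plus strand: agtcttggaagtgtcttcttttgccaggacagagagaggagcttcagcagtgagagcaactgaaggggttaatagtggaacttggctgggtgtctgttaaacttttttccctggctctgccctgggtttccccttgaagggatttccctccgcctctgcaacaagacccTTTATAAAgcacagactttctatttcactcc
The letters TATAAA began 30 bases before the start in MYH6 and 29 bases before it in NPPA and VCAM1. In VCAM1 a match on the other strand overlapped the first, so 8 letters are in capitals. The window of SHOX2 held none and was mostly a run of pyrimidines. Of 35116 promoters in the table, 8.59% held TATAAA in a window of this length. A match describes the letters and nothing more.

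Across the 17 libraries the FPKM summed to between 565805 and 659878, and read depth is not in the files. Among the 6 libraries the first principal component held 60.5% of the variance and split the populations. The next held 18.8%, with library 1 (GFP+mCherry+) and library 8 (GFP-mCherry+) at one end. Library 1 correlated least with its group (mean r 0.952, the other libraries 0.965 to 0.974). In these 6 libraries 12 values in 11 genes were listed at exactly 0 although the other libraries of the group held at least 5 FPKM, among them FN1, NRP2 and TFRC. These were kept in the fit. Whether each library had a culture of its own is not in the labels. The p-values thus measure spread between libraries, which may be technical. Values below are FPKM in libraries 1, 4 and 7 and then in libraries 2, 5 and 8. Differences are GFP+mCherry+ minus GFP-mCherry+ on the log2(FPKM + 1) scale, with the standard error and the Benjamini-Hochberg adjusted p of limma. That scale understates differences of genes with low values.

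Of the 14022 genes, 1795 (12.8%) were higher and 1271 (9.06%) lower in GFP+mCherry+ cells at an adjusted p under 0.05, and 4978 had an unadjusted p under 0.05. Most of the called differences were moderate. The log2 difference was at least 1 in 974 of the higher and 631 of the lower genes, at least 2 in 101 and 114, and at least 3 in 7 and 22, so more of the lower genes passed a difference of that size. The lower genes were also the more abundant, with a median level of 42.8 FPKM in the population where they were higher, against 18.0 FPKM for the higher genes. Over all tested genes the 3 GFP+mCherry+ libraries lay above all 3 GFP-mCherry+ libraries in 23.1% and below them in 20.1%, and the median log2 difference was 0.05. The excess of higher calls (58.5% of those called) rested on the scaling of the libraries, since median-of-ratios scaling gave 1504 higher and 1569 lower. The higher genes numbered 1154, 1083 and 1065 without library 7, 5 or 8, and the lower genes 780, 725 and 793 without library 1, 5 or 8. For gene lists, counts without 1 library are given with the libraries whose removal moved them by over 1.5 times.

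**Figure D1:**
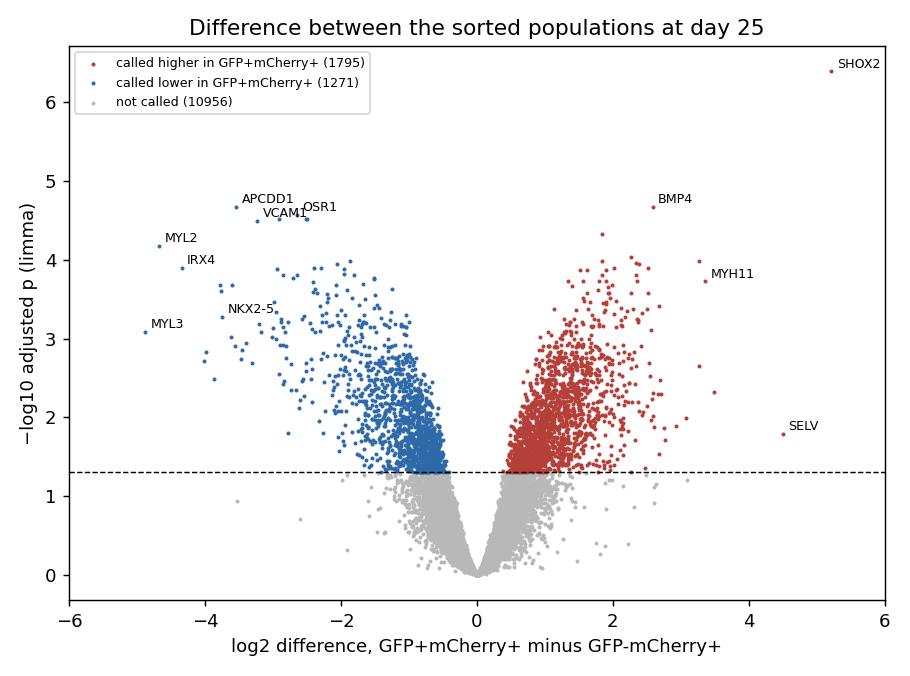
Log2 difference between GFP+mCherry+ and GFP-mCherry+ cells at day 25 (horizontal axis, positive when higher in GFP+mCherry+) against the adjusted p of limma on a −log10 scale (vertical axis), 1 point for each of 14022 genes, with called genes in colour and a dashed line at 0.05. SHOX2 stands alone at the upper right, and 22 genes on the left against 7 on the right pass a difference of 3.

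SHOX2, the homeobox gene behind the GFP reporter (chr3:157814948-157824292, hg19), measured 49.0, 139 and 87.4 FPKM in GFP+mCherry+ and 1.73, 0.901 and 1.34 FPKM in GFP-mCherry+ libraries. The groups were far apart, with the lowest GFP+mCherry+ library well above the highest GFP-mCherry+ library (5.21 ± 0.32, adjusted p 4.05e-07). The GFP-mCherry- libraries averaged 0.427 FPKM. SHOX2 chose the cells, so its difference checks the sort. MYH6, which encodes the fast cardiac myosin heavy chain of atrium and node, measured 229, 463 and 455 FPKM in GFP+mCherry+ and 595, 646 and 765 FPKM in GFP-mCherry+ libraries. The libraries did not overlap, but the difference was not called (−0.87 ± 1.62, adjusted p 0.739). MYH6 was listed at 0 in library 17 of day 40, which shares the estimate of the spread, and leaving those zeros out gave −0.87 ± 0.54 (adjusted p 0.266).

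Among 15 nodal transcription factors and signals, 8 were higher and 2 lower, against 12.8% and 9.06% of all tested genes, and their median log2 difference was 0.98. SHOX2 is 1 of the 8 and its call was fixed by the sort. Without it 7 of 14 were higher and 2 lower (median 0.94). The nuclear receptor genes NR2F1 and NR2F2, which mark atrial identity, were among the higher ones. NR2F1 measured 6.23, 10.3 and 8.84 FPKM in GFP+mCherry+ and 2.29, 2.35 and 4.22 FPKM in GFP-mCherry+ libraries (1.27 ± 0.29, adjusted p 0.00624). NR2F2 measured 49.6, 72.0 and 62.2 FPKM in GFP+mCherry+ and 30.7, 28.9 and 39.2 FPKM in GFP-mCherry+ libraries (0.87 ± 0.21, adjusted p 0.00805). SMOC2, a matricellular gene enriched in the node of mouse, was at 56.3, 20.9 and 29.3 FPKM in GFP+mCherry+ and 18.8, 7.42 and 9.26 FPKM in GFP-mCherry+ libraries (1.49 ± 0.40, adjusted p 0.0164), and RGS6, a brake on muscarinic signalling, at 2.12, 2.45 and 2.29 FPKM in GFP+mCherry+ and 0.414, 0.460 and 0.719 FPKM in GFP-mCherry+ libraries (1.11 ± 0.29, adjusted p 0.0128). TBX3, the repressor of chamber genes, measured 27.2, 44.0 and 35.0 FPKM in GFP+mCherry+ and 13.9, 16.2 and 22.2 FPKM in GFP-mCherry+ libraries (0.98 ± 0.25, adjusted p 0.0119). ISL1 measured 6.72, 14.1 and 11.4 FPKM in GFP+mCherry+ and 6.13, 3.52 and 2.94 FPKM in GFP-mCherry+ libraries (1.17 ± 0.30, adjusted p 0.0133). The groups did not overlap in either, with ISL1 at only a few FPKM in the GFP-mCherry+ cells. MEIS1 and MEIS2, homeobox cofactors on the same list, were lower. MEIS2 measured 65.2, 86.4 and 83.6 FPKM in GFP+mCherry+ and 183, 211 and 152 FPKM in GFP-mCherry+ libraries (−1.20 ± 0.20, adjusted p 0.00121). TBX18 overlapped, since library 2 of the GFP-mCherry+ cells held the highest value. It measured 14.7, 27.4 and 24.1 FPKM in GFP+mCherry+ and 29.0, 8.53 and 4.97 FPKM in GFP-mCherry+ libraries (0.91 ± 0.60, adjusted p 0.297) and averaged 60.6 FPKM in the GFP-mCherry- cells. TBX5, which drives both chamber and conduction genes, was not called at 30.2, 63.2 and 54.7 FPKM in GFP+mCherry+ and 44.5, 49.3 and 67.8 FPKM in GFP-mCherry+ libraries (−0.16 ± 0.33, adjusted p 0.761). The call was lost without 1 library for SMOC2 (library 1, 5 or 8, adjusted p up to 0.079), TBX3 (library 4, adjusted p 0.0526) and ISL1 (library 4, 5 or 8, adjusted p up to 0.0635).

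The transcription factors of the working chambers were lower as a group, 14 of 20 lower and none higher, with a median log2 difference of −1.20. NKX2-5 measured 8.87, 14.0 and 15.8 FPKM in GFP+mCherry+ and 149, 186 and 215 FPKM in GFP-mCherry+ libraries (−3.75 ± 0.55, adjusted p 0.000534). IRX4, the Iroquois gene of ventricular myocytes (chr5:1877541-1887350), measured 0.311, 2.90 and 4.32 FPKM in GFP+mCherry+ and 53.8, 76.4 and 52.7 FPKM in GFP-mCherry+ libraries (−4.34 ± 0.50, adjusted p 0.000126). HEY2, a Notch effector of the compact ventricular wall, measured 5.39, 7.40 and 7.28 FPKM in GFP+mCherry+ and 48.4, 107 and 109 FPKM in GFP-mCherry+ libraries (−3.46 ± 0.59, adjusted p 0.00138). PRDM16, a chromatin regulator of compact myocardium, measured 0.536, 1.21 and 1.55 FPKM in GFP+mCherry+ and 13.7, 16.2 and 14.5 FPKM in GFP-mCherry+ libraries (−2.94 ± 0.34, adjusted p 0.00013). None of these groups overlapped, and in all 4 genes the GFP-mCherry- mean was lower still. MYOCD, the coactivator of muscle genes, measured 5.23, 10.6 and 9.54 FPKM in GFP+mCherry+ and 31.4, 33.0 and 47.8 FPKM in GFP-mCherry+ libraries (−2.05 ± 0.34, adjusted p 0.00121). TBX20 measured 9.06, 26.1 and 24.4 FPKM in GFP+mCherry+ and 47.7, 74.7 and 115 FPKM in GFP-mCherry+ libraries (−1.98 ± 0.53, adjusted p 0.0156). Further factors of the chambers fell less, among them MEF2C (−1.43 ± 0.33), MEF2A (−0.88 ± 0.20) and HAND2 (−0.79 ± 0.25). GATA4 (at 60.5, 113 and 109 FPKM in GFP+mCherry+ and 120.3, 130.5 and 123 FPKM in GFP-mCherry+ libraries), HAND1 (log2 difference 0.12 ± 0.18) and GATA6 (−0.06 ± 0.17), which are early factors of the whole cardiac mesoderm, were not called. OSR1 and NKX2-6 had the smallest adjusted p among 73 further developmental factors. OSR1, a zinc finger gene of the posterior second heart field in mouse (chr2:19551246-19558414), measured 3.17, 3.38 and 3.50 FPKM in GFP+mCherry+ and 23.6, 32.1 and 24.1 FPKM in GFP-mCherry+ libraries (−2.65 ± 0.24, adjusted p 2.69e-05). NKX2-6, a relative of NKX2-5 of pharynx and outflow tract in mouse, measured 0.300, 1.32 and 0.837 FPKM in GFP+mCherry+ and 8.84, 11.5 and 7.43 FPKM in GFP-mCherry+ libraries (−2.52 ± 0.24, adjusted p 3.03e-05). Both were lower in GFP+mCherry+ cells. Leaving out 1 library ended the call of TBX20 (library 1 or 8, adjusted p up to 0.0745) and HAND2 (library 1, 7, 5 or 8, adjusted p up to 0.135).

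**Figure D2:**
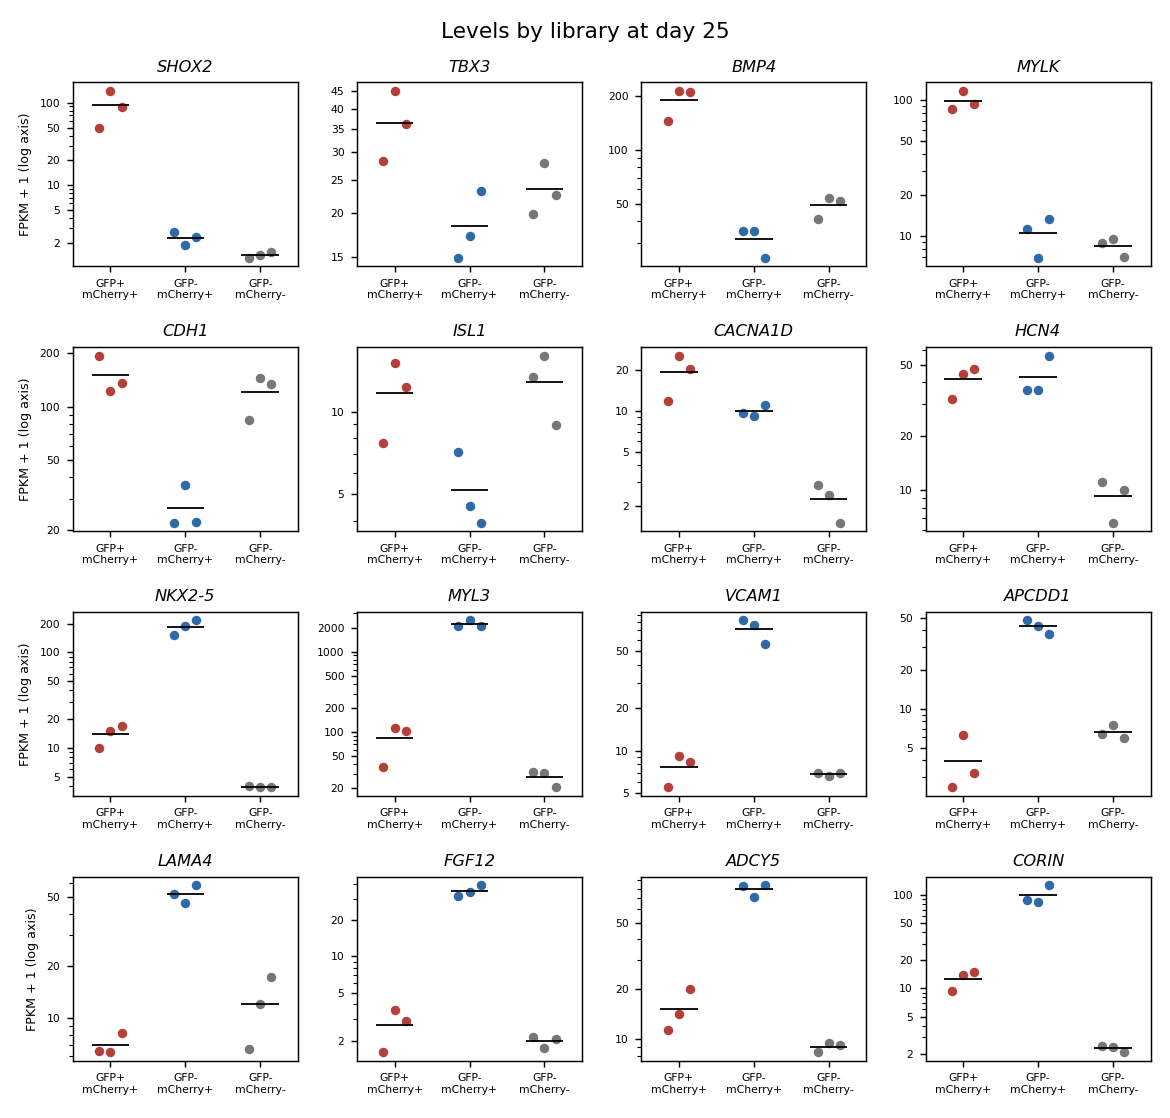
FPKM + 1 on a logarithmic axis for 16 genes at day 25, 1 point for each library and a bar at the group mean, in GFP+mCherry+ (left), GFP-mCherry+ (middle) and GFP-mCherry- libraries (right). SHOX2, TBX3, BMP4, MYLK, CDH1, ISL1 and CACNA1D are higher in the left than in the middle group with no overlap, HCN4 overlaps, and NKX2-5, MYL3, VCAM1, APCDD1, LAMA4, FGF12, ADCY5 and CORIN are lower.

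Atrial markers were split, with 4 higher and 5 lower of 13 and a median of 0.10, which turned to −0.09 under quantile normalization. GJA5, the connexin 40 gene of atrium and fast conduction, measured 9.59, 3.81 and 5.22 FPKM in GFP+mCherry+ and 47.6, 38.4 and 45.4 FPKM in GFP-mCherry+ libraries (−2.71 ± 0.33, adjusted p 0.000169). MYL4, the atrial essential light chain, measured 583, 1002 and 842 FPKM in GFP+mCherry+ and 2742, 3391 and 4152 FPKM in GFP-mCherry+ libraries (−2.10 ± 0.49, adjusted p 0.00805). NPPA, the atrial natriuretic peptide gene, measured 238, 246 and 248 FPKM in GFP+mCherry+ and 992, 811 and 1399 FPKM in GFP-mCherry+ libraries (−2.09 ± 0.50, adjusted p 0.00877). These were lower without overlap. SLN, the atrial inhibitor of the calcium pump, went the other way at 81.5, 191 and 160.2 FPKM in GFP+mCherry+ and 28.0, 43.9 and 31.1 FPKM in GFP-mCherry+ libraries (1.98 ± 0.61, adjusted p 0.0303), as did KCNA5, the channel of the atrial ultrarapid current, at 8.58, 11.0 and 13.0 FPKM in GFP+mCherry+ and 6.35, 4.59 and 5.60 FPKM in GFP-mCherry+ libraries (0.86 ± 0.29, adjusted p 0.0416). MYL7, the most abundant atrial light chain gene, was not called at 3876, 10125 and 8829 FPKM in GFP+mCherry+ and 13177, 15490.3 and 15822 FPKM in GFP-mCherry+ libraries (−1.07 ± 0.47, adjusted p 0.117). Ventricular markers were lower in 9 of 13 and higher in none (median −3.46). MYL2, the ventricular regulatory light chain, measured 0.798, 1.08 and 2.58 FPKM in GFP+mCherry+ and 39.6, 39.1 and 137 FPKM in GFP-mCherry+ libraries (−4.68 ± 0.49, adjusted p 6.69e-05). MYL3, the ventricular essential light chain, measured 35.2, 112 and 102 FPKM in GFP+mCherry+ and 2089, 2455 and 2092 FPKM in GFP-mCherry+ libraries (−4.88 ± 0.77, adjusted p 0.000814), which was the most negative difference of the 14022 genes. TNNI3, the adult cardiac troponin I, was not called at 30.0, 74.9 and 76.6 FPKM in GFP+mCherry+ and 87.5, 115 and 104 FPKM in GFP-mCherry+ libraries (−0.86 ± 0.36, adjusted p 0.102). The higher atrial markers numbered 2 (library 2, 4, 5, 7 or 8) in refits without 1 library. Calls that did not hold without 1 library were those of SLN (library 4, 7, 2, 5 or 8, adjusted p up to 0.0992) and KCNA5 (library 4, 7, 2, 5 or 8, adjusted p up to 0.143).

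Sarcomere genes were lower in both lists, 9 of 15 for the thick filament and light chains (none higher, median −1.97) and 21 of 32 for the thin filament and Z disc (1 higher, median −1.45). TNNC1, troponin C of heart and slow muscle, measured 110.3, 125 and 113 FPKM in GFP+mCherry+ and 1385, 1491 and 1978 FPKM in GFP-mCherry+ libraries (−3.78 ± 0.48, adjusted p 0.000207). LMOD2, which lengthens thin filaments, measured 0.752, 2.05 and 1.57 FPKM in GFP+mCherry+ and 13.1, 23.7 and 71.1 FPKM in GFP-mCherry+ libraries (−3.61 ± 0.58, adjusted p 0.000956). HSPB7, a small heat shock protein of the sarcomere, measured 97.6, 183 and 211 FPKM in GFP+mCherry+ and 1018, 1451 and 1891 FPKM in GFP-mCherry+ libraries (−3.17 ± 0.50, adjusted p 0.000827). Its relatives HSPB2 (−3.60 ± 0.46, adjusted p 0.000212) and HSPB3 (−2.84 ± 0.57, adjusted p 0.00346) and the desmin chaperone CRYAB (−1.89 ± 0.40, adjusted p 0.00447) fell too. ACTN2, the Z disc actinin, measured 40.0, 136 and 130.1 FPKM in GFP+mCherry+ and 438, 581 and 610.1 FPKM in GFP-mCherry+ libraries (−2.58 ± 0.52, adjusted p 0.00345), with library 1 the lowest. TNNT2, cardiac troponin T, measured 1006, 2427 and 1955 FPKM in GFP+mCherry+ and 4417, 5957 and 5609.9 FPKM in GFP-mCherry+ libraries (−1.65 ± 0.46, adjusted p 0.0196), still abundant in every GFP+mCherry+ library, against a mean of 135 FPKM in GFP-mCherry- cells. The single member that was higher was TNNT1, the slow skeletal troponin T, at 125, 83.6 and 90.9 FPKM in GFP+mCherry+ and 68.4, 33.8 and 21.0 FPKM in GFP-mCherry+ libraries (1.40 ± 0.36, adjusted p 0.0126). ACTC1, cardiac actin, was not called at 1300.2, 3270.5 and 2849 FPKM in GFP+mCherry+ and 3221, 5902 and 5869.7 FPKM in GFP-mCherry+ libraries (−1.07 ± 0.54, adjusted p 0.173). The cardiomyocyte markers RYR2, TTN, ACTN2 and MYH6 stood above the GFP-mCherry- mean in every library of both mCherry+ populations. The lower thin filament and Z disc genes numbered 13 (library 1 or 8) in refits without 1 library. Refits that left out 1 library ended the call of TNNT2 (library 1, 5 or 8, adjusted p up to 0.0881) and TNNT1 (library 1 or 8, adjusted p up to 0.0683).

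Of 14 tested genes of pacemaker currents, calcium entry and coupling, 3 were higher and 5 lower (median −0.36). HCN4, the main channel of the funny current, overlapped at 31.4, 43.5 and 46.1 FPKM in GFP+mCherry+ and 35.0, 35.1 and 55.1 FPKM in GFP-mCherry+ libraries (−0.04 ± 0.33, adjusted p 0.954). The L-type calcium channels split by subunit. CACNA1D, the subtype of nodal pacemaking, measured 11.0, 24.6 and 19.5 FPKM in GFP+mCherry+ and 8.68, 8.18 and 10.1 FPKM in GFP-mCherry+ libraries (0.89 ± 0.28, adjusted p 0.033), whereas CACNA1C, the subtype of working myocytes, measured 13.4, 29.6 and 27.3 FPKM in GFP+mCherry+ and 70.9, 60.8 and 82.0 FPKM in GFP-mCherry+ libraries (−1.63 ± 0.31, adjusted p 0.00225). The 2 subunits thus went in opposite directions. The T-type gene CACNA1G was lower at 6.84, 9.40 and 10.9 FPKM in GFP+mCherry+ and 19.4, 21.4 and 35.0 FPKM in GFP-mCherry+ libraries (−1.36 ± 0.29, adjusted p 0.00473). KCNJ5, a subunit of the acetylcholine-activated channel, was lower at 3.22, 4.19 and 4.91 FPKM in GFP+mCherry+ and 13.3, 16.9 and 28.8 FPKM in GFP-mCherry+ libraries (−1.96 ± 0.32, adjusted p 0.00108). Its partner KCNJ3 was not called at 7.50, 17.0 and 17.0 FPKM in GFP+mCherry+ and 8.71, 7.42 and 7.47 FPKM in GFP-mCherry+ libraries (0.67 ± 0.31, adjusted p 0.137). HCN2 and GJD3 did not reach the level for a test. Without 1 library the call ended for CACNA1D (library 4, 7, 2, 5 or 8, adjusted p up to 0.141).

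Of 10 sodium channel genes and partners, 5 were lower and 1 higher. The modulators FGF12 and FGF13, intracellular relatives of fibroblast growth factors that bind sodium channels, fell. FGF12 (chr3:191857184-192485553) measured 0.600, 2.62 and 1.89 FPKM in GFP+mCherry+ and 30.8, 33.1 and 37.8 FPKM in GFP-mCherry+ libraries (−3.77 ± 0.49, adjusted p 0.000246). FGF13 measured 15.7, 22.9 and 22.3 FPKM in GFP+mCherry+ and 55.2, 71.3 and 81.5 FPKM in GFP-mCherry+ libraries (−1.72 ± 0.34, adjusted p 0.00288). GPD1L, which regulates the cardiac sodium current, was lower too (−1.47 ± 0.20, adjusted p 0.000376). Potassium channel genes went both ways, with 7 higher and 6 lower of 29. KCNH7, of the ether-a-go-go family, measured 0.909, 1.69 and 2.08 FPKM in GFP+mCherry+ and 8.00, 11.6 and 15.8 FPKM in GFP-mCherry+ libraries (−2.30 ± 0.32, adjusted p 0.000386). KCNJ11, the pore of the ATP-sensitive channel, measured 0.710, 0.801 and 2.37 FPKM in GFP+mCherry+ and 5.57, 11.2 and 14.5 FPKM in GFP-mCherry+ libraries (−2.30 ± 0.42, adjusted p 0.00182). KCNH2 (−1.06 ± 0.28, adjusted p 0.0142) and KCNQ1 (−1.60 ± 0.39, adjusted p 0.00919), the channels of the rapid and slow repolarizing currents, were lower too. KCNK3, an acid-sensitive background channel, measured 5.90, 13.6 and 14.1 FPKM in GFP+mCherry+ and 2.43, 3.78 and 2.51 FPKM in GFP-mCherry+ libraries (1.57 ± 0.31, adjusted p 0.00322). The accessory subunit gene KCNE4 measured 70.4, 25.3 and 45.8 FPKM in GFP+mCherry+ and 5.16, 6.71 and 19.5 FPKM in GFP-mCherry+ libraries (2.17 ± 0.50, adjusted p 0.0069). The higher potassium channel genes numbered 4 (library 4, 5, 7 or 8) in refits without 1 library, and quantile normalization called 11 lower. Refits without 1 library lost the call of KCNH2 (library 1, adjusted p 0.0594).

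Genes of the sarcoplasmic reticulum, the store of the calcium clock, were lower in 9 of 20 and higher in 3 (median −0.73). SRL, the luminal calcium binder sarcalumenin, measured 2.61, 4.50 and 4.49 FPKM in GFP+mCherry+ and 24.1, 39.2 and 40.2 FPKM in GFP-mCherry+ libraries (−2.86 ± 0.48, adjusted p 0.00121). TRDN, which anchors calsequestrin to the release channel, measured 9.01, 18.4 and 15.0 FPKM in GFP+mCherry+ and 45.3, 51.4 and 68.4 FPKM in GFP-mCherry+ libraries (−1.92 ± 0.37, adjusted p 0.00257). The release channel RYR2 itself measured 39.9, 42.3 and 32.1 FPKM in GFP+mCherry+ and 74.3, 88.7 and 89.7 FPKM in GFP-mCherry+ libraries (−1.13 ± 0.37, adjusted p 0.0389). None of these overlapped. ITPR2, the other class of release channel, was higher (1.11 ± 0.32, adjusted p 0.0212). The pump ATP2A2 at 352, 490.0 and 445 FPKM in GFP+mCherry+ and 518, 547 and 629.5 FPKM in GFP-mCherry+ libraries (−0.40 ± 0.23, adjusted p 0.219), its inhibitor PLN (−0.75 ± 0.55, adjusted p 0.355) and the exchanger SLC8A1 at 54.2, 105 and 116 FPKM in GFP+mCherry+ and 159, 172 and 217 FPKM in GFP-mCherry+ libraries (−1.05 ± 0.43, adjusted p 0.089) were not called, although the ATP2A2 and SLC8A1 libraries did not overlap. The call was lost without 1 library for RYR2 (library 1, 4, 7, 2, 5 or 8, adjusted p up to 0.12) and ITPR2 (library 1, 4 or 5, adjusted p up to 0.0984).

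Receptors and messengers of autonomic control were mixed, 9 of 43 higher and 7 lower. ADCY5, the adenylyl cyclase of cardiac myocytes (chr3:123001143-123168605), measured 10.4, 13.3 and 18.97 FPKM in GFP+mCherry+ and 81.4, 70.2 and 82.7 FPKM in GFP-mCherry+ libraries (−2.41 ± 0.30, adjusted p 0.000192). PRKACA, the catalytic subunit of protein kinase A, measured 48.4, 45.8 and 43.9 FPKM in GFP+mCherry+ and 98.4, 106 and 117 FPKM in GFP-mCherry+ libraries (−1.20 ± 0.18, adjusted p 0.000648). PDE3A, which breaks cyclic AMP down, was higher at 13.4, 18.4 and 19.9 FPKM in GFP+mCherry+ and 5.70, 5.51 and 2.98 FPKM in GFP-mCherry+ libraries (1.69 ± 0.26, adjusted p 0.000713). A gene that makes cyclic AMP was thus lower and a gene that removes it higher, but cyclic AMP itself was not measured. GNAS, PRKAR1A and ADCY6 of the same list were not called. CORIN, the protease that activates the natriuretic peptide of NPPA (chr4:47596015-47840123), measured 8.44, 12.9 and 13.9 FPKM in GFP+mCherry+ and 88.6, 83.4 and 127 FPKM in GFP-mCherry+ libraries (−2.98 ± 0.41, adjusted p 0.000348). AGTR1, the angiotensin receptor gene, was higher in all 3 libraries but spread widely. It measured 139.9, 16.7 and 33.6 FPKM in GFP+mCherry+ and 1.25, 3.42 and 13.5 FPKM in GFP-mCherry+ libraries (3.08 ± 0.76, adjusted p 0.0102), with library 1 several times the other values. RGS4, an inhibitor of G protein signalling, measured 78.5, 247 and 226 FPKM in GFP+mCherry+ and 24.0, 45.0 and 16.6 FPKM in GFP-mCherry+ libraries (2.60 ± 0.63, adjusted p 0.00965). The muscarinic receptor CHRM2 at 16.5, 29.7 and 25.2 FPKM in GFP+mCherry+ and 21.5, 18.2 and 21.5 FPKM in GFP-mCherry+ libraries (0.18 ± 0.24, adjusted p 0.635) and the adenosine receptor ADORA1 (0.23 ± 0.26, adjusted p 0.57) were not called. Leaving out 1 library ended the call of AGTR1 (library 1, adjusted p 0.0512).

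Smooth muscle genes were higher in 5 of 22 and lower in none (median 0.54), against 12.8% and 9.06% of all tested genes. MYH11, smooth muscle myosin, measured 37.2, 47.2 and 48.4 FPKM in GFP+mCherry+ and 5.65, 3.01 and 2.19 FPKM in GFP-mCherry+ libraries (3.35 ± 0.42, adjusted p 0.000188). MYLK, the kinase of the smooth muscle light chain, measured 84.9, 116 and 91.8 FPKM in GFP+mCherry+ and 10.3, 5.95 and 12.3 FPKM in GFP-mCherry+ libraries (3.27 ± 0.36, adjusted p 0.000105). CALD1, caldesmon, measured 453, 452 and 420.0 FPKM in GFP+mCherry+ and 189, 156 and 104 FPKM in GFP-mCherry+ libraries (1.59 ± 0.31, adjusted p 0.00291). These groups were far apart, while GFP-mCherry- cells averaged only 0.743 FPKM of MYH11 and 7.50 FPKM of MYLK. Other genes of the same contractile apparatus were not called, among them ACTA2 at 548, 893 and 698 FPKM in GFP+mCherry+ and 565, 450.3 and 534 FPKM in GFP-mCherry+ libraries (0.44 ± 0.48, adjusted p 0.548) and MYL9 at 456, 559.8 and 529 FPKM in GFP+mCherry+ and 749.7, 744 and 871 FPKM in GFP-mCherry+ libraries (−0.61 ± 0.32, adjusted p 0.184). Summed over 22 genes the list held 5004 to 5453 FPKM in GFP+mCherry+ libraries, 4230 to 5635 FPKM in GFP-mCherry+ libraries and 2596 to 4723 FPKM in GFP-mCherry- libraries. Without 1 library 3 (library 2, 7 or 8) of the smooth muscle genes were called higher, which is near the share over all tested genes.

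Genes of oxidative metabolism were mostly lower. For oxidative phosphorylation 47 of 56 members fell, with a median of −0.86 and the highest difference at −0.25. NDUFA4, a subunit of the respiratory chain, measured 308, 195 and 256 FPKM in GFP+mCherry+ and 774, 619 and 841 FPKM in GFP-mCherry+ libraries (−1.57 ± 0.24, adjusted p 0.000713). COX6A2, the cytochrome oxidase subunit of striated muscle, measured 0.841, 1.45 and 3.43 FPKM in GFP+mCherry+ and 21.8, 32.5 and 11.3 FPKM in GFP-mCherry+ libraries (−2.96 ± 0.42, adjusted p 0.000463). Of 32 genes of the citric acid cycle and pyruvate oxidation 22 were lower and 2 higher. IDH2, mitochondrial isocitrate dehydrogenase, measured 84.0, 102 and 100.1 FPKM in GFP+mCherry+ and 242, 240.4 and 263 FPKM in GFP-mCherry+ libraries (−1.37 ± 0.21, adjusted p 0.000648), and CS, citrate synthase, measured 60.7, 97.3 and 89.0 FPKM in GFP+mCherry+ and 174, 202 and 205 FPKM in GFP-mCherry+ libraries (−1.25 ± 0.22, adjusted p 0.00174). The 2 higher members were PDK4 (1.03 ± 0.31, adjusted p 0.0273) and PDP1 (0.99 ± 0.29, adjusted p 0.0225), a kinase that switches pyruvate dehydrogenase off and a phosphatase that switches it on. Of 33 genes of fatty acid uptake and oxidation 20 were lower and none higher. SLC27A6, the fatty acid transporter of heart, measured 12.3, 14.2 and 12.2 FPKM in GFP+mCherry+ and 38.6, 60.0 and 62.8 FPKM in GFP-mCherry+ libraries (−1.95 ± 0.23, adjusted p 0.000153). ECI1, an enzyme of unsaturated fatty acid oxidation, measured 26.9, 35.2 and 34.2 FPKM in GFP+mCherry+ and 80.5, 106 and 94.2 FPKM in GFP-mCherry+ libraries (−1.52 ± 0.24, adjusted p 0.000713). Summed over 57 oxidative phosphorylation genes, GFP+mCherry+ libraries held 9852 to 10748 FPKM, GFP-mCherry+ libraries 18802 to 20712 FPKM and GFP-mCherry- libraries 8587 to 10728 FPKM. Leaving out 1 library left 31 (library 5 or 7) lower oxidative phosphorylation genes and 10 to 13 (library 1, 5 or 8) lower fatty acid genes. Calls that did not hold without 1 library were those of PDK4 (library 1, 4, 2 or 5, adjusted p up to 0.0948) and PDP1 (library 4, 7, 2 or 8, adjusted p up to 0.096).

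Glycolysis was lower too, 23 of 34 genes lower and none higher (median −0.99). ENO3, the muscle enolase, measured 53.5, 138 and 131 FPKM in GFP+mCherry+ and 492, 554 and 510.5 FPKM in GFP-mCherry+ libraries (−2.38 ± 0.38, adjusted p 0.000827). LDHB, the lactate dehydrogenase subunit of heart, measured 397, 533 and 454 FPKM in GFP+mCherry+ and 904, 1139 and 1038 FPKM in GFP-mCherry+ libraries (−1.16 ± 0.21, adjusted p 0.0019). PYGM, muscle glycogen phosphorylase, measured 18.5, 22.2 and 23.1 FPKM in GFP+mCherry+ and 86.3, 77.0 and 42.4 FPKM in GFP-mCherry+ libraries (−1.59 ± 0.32, adjusted p 0.00335). The glucose transporter genes SLC2A1 at 849, 989 and 1346 FPKM in GFP+mCherry+ and 581, 833 and 412 FPKM in GFP-mCherry+ libraries (0.83 ± 0.30, adjusted p 0.0544) and SLC2A3 (0.83 ± 0.30, adjusted p 0.0555) were not called. In the creatine system 6 of 8 genes were lower and 1 higher. CKMT2, the mitochondrial creatine kinase of muscle, measured 8.15, 17.0 and 18.8 FPKM in GFP+mCherry+ and 81.8, 91.2 and 78.8 FPKM in GFP-mCherry+ libraries (−2.52 ± 0.46, adjusted p 0.00204). CKM, the muscle creatine kinase, measured 10.0, 33.7 and 52.0 FPKM in GFP+mCherry+ and 315, 483 and 417 FPKM in GFP-mCherry+ libraries (−3.87 ± 0.78, adjusted p 0.00328). CKB, the brain form, was not called at 213, 289 and 358 FPKM in GFP+mCherry+ and 304, 286 and 151 FPKM in GFP-mCherry+ libraries (0.25 ± 0.42, adjusted p 0.71). Mitochondrial ribosomal proteins were lower in 17 of 46 and cytosolic ribosomal proteins in 26 of 63, with none higher and medians of −0.54 and −0.58. RPS16 measured 753, 678 and 709.6 FPKM in GFP+mCherry+ and 1217, 1302 and 1319 FPKM in GFP-mCherry+ libraries (−0.84 ± 0.20, adjusted p 0.00735). Among the largest losses in FPKM were the selenoprotein genes GPX4, a lipid peroxidase, at 3343, 4255 and 3665 FPKM in GFP+mCherry+ and 14062, 14935 and 6999 FPKM in GFP-mCherry+ libraries (−1.61 ± 0.39, adjusted p 0.00924), and SEPW1, at 1932, 1737 and 1650.2 FPKM in GFP+mCherry+ and 5302, 5799.5 and 6728 FPKM in GFP-mCherry+ libraries (−1.74 ± 0.24, adjusted p 0.000376). SEPP1, a secreted selenoprotein, went the other way at 5730.1, 4317 and 3358 FPKM in GFP+mCherry+ and 780.3, 1622 and 1470.2 FPKM in GFP-mCherry+ libraries (1.83 ± 0.37, adjusted p 0.00335). Counts of lower genes without 1 library were 10 to 15 (library 1, 2, 5 or 8) for glycolysis, 7 to 11 (library 1, 2, 5 or 7) for mitochondrial ribosomal proteins and 4 to 14 (library 2, 4, 5, 7 or 8) for cytosolic ribosomal proteins. Quantile normalization gave 14 lower glycolysis genes and 4 lower cytosolic ribosomal proteins. The call of GPX4 ended under quantile normalization (adjusted p 0.117).

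**Figure D3:**
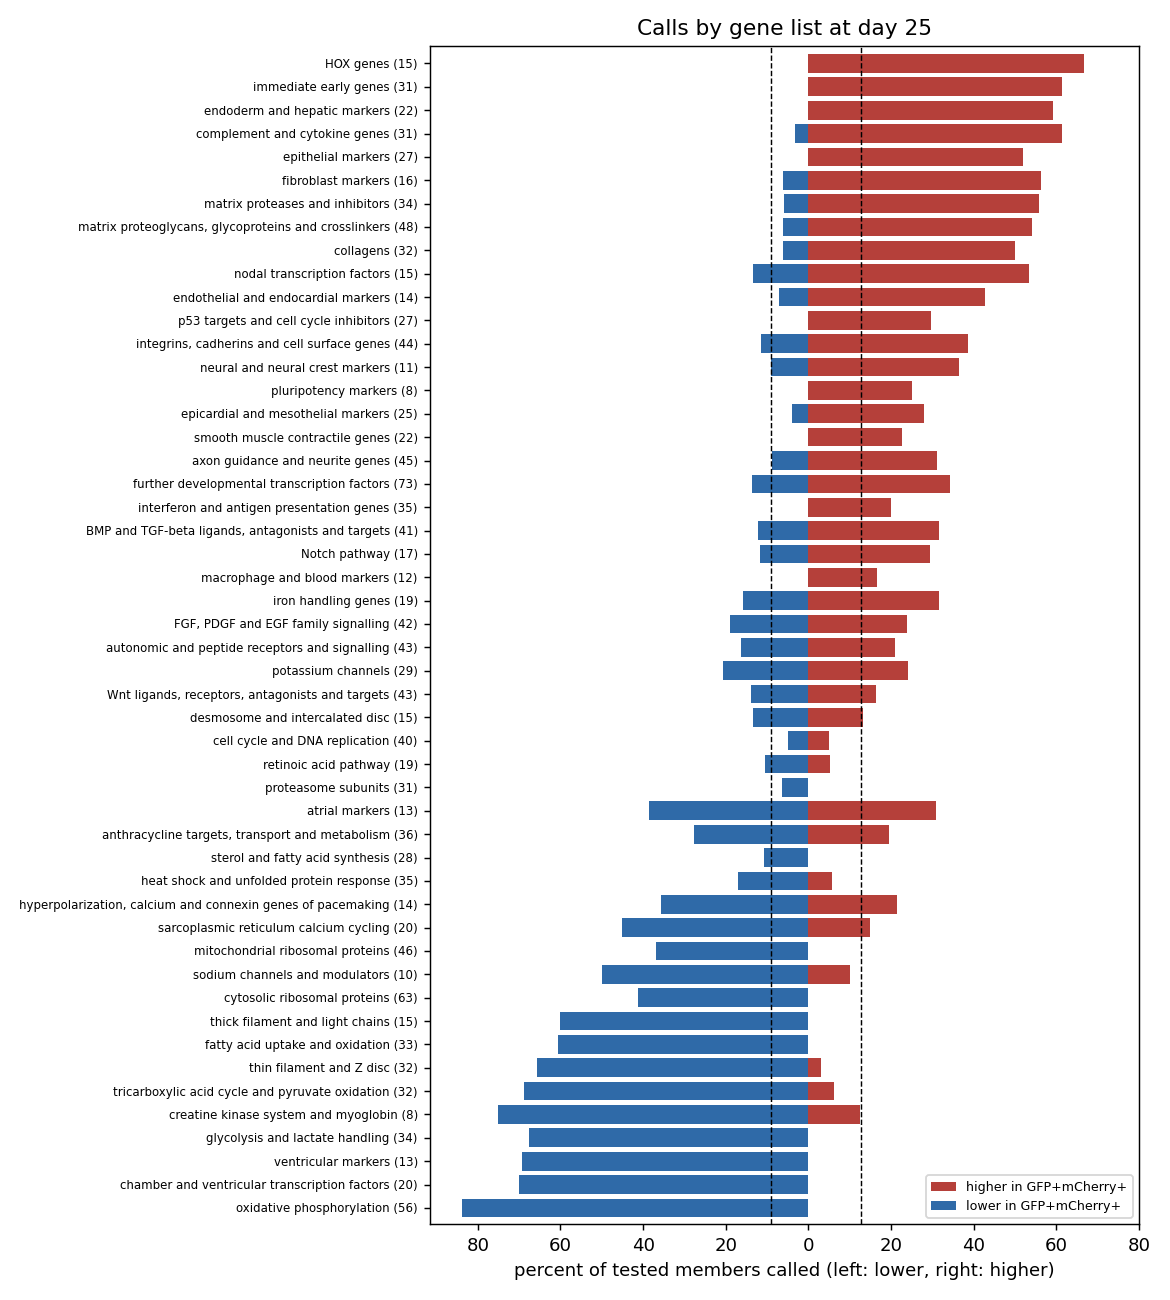
Share of the tested members of each gene list that was called higher (bars to the right) or lower (bars to the left) in GFP+mCherry+ cells at day 25, in percent, with the number tested in brackets. Dashed lines mark the shares over all 14022 genes, 12.8% higher and 9.06% lower. Oxidative phosphorylation, creatine and chamber transcription factor lists extend furthest to the left, and HOX, immediate early and complement lists furthest to the right.

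Of 41 genes of BMP and TGF-beta signalling 13 were higher and 5 lower (median 0.56). BMP4 (chr14:54416454-54425479), a ligand of nodal and epicardial induction and also a supplement of the medium, measured 145, 214 and 209.7 FPKM in GFP+mCherry+ and 34.2, 34.0 and 23.8 FPKM in GFP-mCherry+ libraries (2.58 ± 0.23, adjusted p 2.14e-05). FST, follistatin, which traps activins, measured 52.4, 41.3 and 46.9 FPKM in GFP+mCherry+ and 6.88, 8.80 and 9.91 FPKM in GFP-mCherry+ libraries (2.33 ± 0.26, adjusted p 0.000111). FSTL3, of the same family, measured 59.3, 35.8 and 44.8 FPKM in GFP+mCherry+ and 19.1, 19.7 and 19.7 FPKM in GFP-mCherry+ libraries (1.19 ± 0.21, adjusted p 0.00149). The ligand BMP4 and these inhibitors of the family thus rose together. Other ligands were lower, GDF11 at 6.20, 7.88 and 6.12 FPKM in GFP+mCherry+ and 17.6, 17.1 and 18.2 FPKM in GFP-mCherry+ libraries (−1.28 ± 0.19, adjusted p 0.000588) and BMP7 (−1.88 ± 0.34, adjusted p 0.00189), and so was LTBP1, which stores latent TGF-beta, at 31.2, 46.4 and 49.2 FPKM in GFP+mCherry+ and 97.5, 107 and 136 FPKM in GFP-mCherry+ libraries (−1.42 ± 0.21, adjusted p 0.000555). The BMP target ID3 was not called (−0.04 ± 0.36, adjusted p 0.958). The lower genes of BMP and TGF-beta signalling numbered 3 (library 1, 5 or 8) without 1 library.

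The Wnt pathway was near the background in number, with 7 of 43 higher and 6 lower, but held some of the best separated genes. APCDD1, a membrane inhibitor and target of Wnt signalling (chr18:10454625-10489945), measured 1.48, 5.24 and 2.20 FPKM in GFP+mCherry+ and 46.7, 42.4 and 36.7 FPKM in GFP-mCherry+ libraries (−3.54 ± 0.30, adjusted p 2.14e-05). WNT5B, a ligand (chr12:1639057-1756409), measured 6.70, 4.19 and 4.85 FPKM in GFP+mCherry+ and 20.2, 24.9 and 20.0 FPKM in GFP-mCherry+ libraries (−1.87 ± 0.21, adjusted p 0.000105). RSPO2, which amplifies Wnt signals at the receptor, measured 35.4, 38.2 and 41.3 FPKM in GFP+mCherry+ and 5.74, 7.01 and 7.65 FPKM in GFP-mCherry+ libraries (2.34 ± 0.28, adjusted p 0.000155). Its receptor LGR4 measured 25.4, 22.7 and 21.0 FPKM in GFP+mCherry+ and 46.2, 35.4 and 53.5 FPKM in GFP-mCherry+ libraries (−0.92 ± 0.17, adjusted p 0.00201). The amplifier was higher and its receptor lower. FZD7, a Frizzled receptor, measured 38.2, 66.9 and 73.2 FPKM in GFP+mCherry+ and 17.6, 15.6 and 12.3 FPKM in GFP-mCherry+ libraries (1.87 ± 0.27, adjusted p 0.000463). FRZB, a secreted antagonist, measured 849.8, 196 and 246 FPKM in GFP+mCherry+ and 21.0, 49.9 and 119 FPKM in GFP-mCherry+ libraries (2.75 ± 0.72, adjusted p 0.0136), again with library 1 far above the others. In the Notch pathway 5 of 17 were higher and 2 lower. DLK1, a non-canonical ligand, measured 744, 576 and 744 FPKM in GFP+mCherry+ and 224, 281 and 224 FPKM in GFP-mCherry+ libraries (1.50 ± 0.32, adjusted p 0.00507). The effector HES1 measured 226, 72.3 and 136 FPKM in GFP+mCherry+ and 37.6, 24.8 and 63.2 FPKM in GFP-mCherry+ libraries (1.72 ± 0.44, adjusted p 0.0126), against the loss of HEY2 given above. Of 19 genes of retinoic acid handling 1 was higher and 2 lower. TGM2, a transglutaminase induced by retinoic acid, measured 30.2, 40.5 and 46.4 FPKM in GFP+mCherry+ and 126, 206 and 328 FPKM in GFP-mCherry+ libraries (−2.38 ± 0.31, adjusted p 0.000237), and CRABP2, the carrier that brings retinoic acid to its receptors, was not called at 245, 419 and 389 FPKM in GFP+mCherry+ and 422, 297 and 242 FPKM in GFP-mCherry+ libraries (0.13 ± 0.29, adjusted p 0.782). In the FGF, PDGF, EGF and IGF families 10 of 42 were higher and 8 lower. EGFR measured 8.49, 7.94 and 9.37 FPKM in GFP+mCherry+ and 2.46, 2.30 and 2.19 FPKM in GFP-mCherry+ libraries (1.53 ± 0.28, adjusted p 0.00204). Its relative ERBB2 measured 41.9, 55.1 and 63.3 FPKM in GFP+mCherry+ and 129.6, 117 and 180.0 FPKM in GFP-mCherry+ libraries (−1.39 ± 0.25, adjusted p 0.00193), in opposite directions and without overlap. PDGFD, a platelet-derived growth factor, measured 30.6, 9.75 and 11.4 FPKM in GFP+mCherry+ and 51.6, 65.1 and 66.3 FPKM in GFP-mCherry+ libraries (−1.93 ± 0.34, adjusted p 0.0017). IGFBP3, a binding protein of insulin-like growth factors, measured 947, 655 and 809 FPKM in GFP+mCherry+ and 219.7, 242 and 225 FPKM in GFP-mCherry+ libraries (1.79 ± 0.35, adjusted p 0.00257). Without 1 library the Wnt pathway had 4 (library 5) higher and 3 (library 1, 4 or 7) lower genes, the Notch pathway 2 to 3 (library 5, 7 or 8) higher genes, and the growth factor families 4 to 6 (library 4, 5, 7 or 8) higher and 5 (library 7 or 8) lower genes. Refits that left out 1 library ended the call of FRZB (library 1 or 2, adjusted p up to 0.0668) and HES1 (library 1 or 5, adjusted p up to 0.064).

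Surface and adhesion genes were higher in 17 of 44 and lower in 5 (median 0.59), with some large differences among the lower members. VCAM1, an adhesion molecule of early cardiomyocytes (chr1:101185298-101204601), measured 4.51, 8.19 and 7.27 FPKM in GFP+mCherry+ and 81.1, 75.0 and 54.9 FPKM in GFP-mCherry+ libraries (−3.23 ± 0.31, adjusted p 3.21e-05). SIRPA, used to sort human cardiomyocytes, measured 13.9, 16.5 and 17.4 FPKM in GFP+mCherry+ and 40.3, 41.0 and 41.5 FPKM in GFP-mCherry+ libraries (−1.32 ± 0.24, adjusted p 0.00176). The GFP-mCherry- means, 5.84 FPKM of VCAM1 and 19.1 FPKM of SIRPA, were close to the GFP+mCherry+ levels. Of the laminin chains, LAMA4 (chr6:112429963-112576141) measured 5.46, 5.32 and 7.22 FPKM in GFP+mCherry+ and 51.2, 45.2 and 57.6 FPKM in GFP-mCherry+ libraries (−2.90 ± 0.28, adjusted p 3.03e-05). LAMA2, the chain of muscle basement membrane, measured 18.0, 18.0 and 24.1 FPKM in GFP+mCherry+ and 60.2, 72.7 and 80.5 FPKM in GFP-mCherry+ libraries (−1.78 ± 0.29, adjusted p 0.00112). Of the laminin receptors, the muscle subunit ITGA7 was lower (−1.13 ± 0.27, adjusted p 0.00843) and the epithelial subunits ITGA6 (1.34 ± 0.38, adjusted p 0.0209) and ITGB4 (1.42 ± 0.41, adjusted p 0.0228) were higher. Desmosome and intercalated disc genes were near the background, with 2 of 15 higher and 2 lower (13.3% each). Over all tested genes 12.8% were higher and 9.06% lower. The median of this list was 0.05 and turned to −0.03 under median-of-ratios scaling. Its 11 members not called included CTNNA1, CTNNB1 and CDH2. The desmosomal cadherins DSG2 at 92.8, 85.2 and 102 FPKM in GFP+mCherry+ and 45.5, 40.7 and 39.8 FPKM in GFP-mCherry+ libraries (1.13 ± 0.23, adjusted p 0.00401) and DSC2 (0.98 ± 0.22, adjusted p 0.00646) were higher, whereas the cardiac alpha-T-catenin CTNNA3 at 3.60, 3.11 and 2.64 FPKM in GFP+mCherry+ and 10.6, 13.1 and 19.7 FPKM in GFP-mCherry+ libraries (−1.87 ± 0.37, adjusted p 0.00326) and the plakophilin PKP2 (−0.60 ± 0.18, adjusted p 0.0237) were lower. GJA1, connexin 43, was higher at 227, 119.8 and 151 FPKM in GFP+mCherry+ and 74.8, 82.7 and 73.6 FPKM in GFP-mCherry+ libraries (1.05 ± 0.26, adjusted p 0.0109). Refits without 1 library called 8 to 11 (library 1, 5, 7 or 8) surface and adhesion genes higher. Without 1 library the call ended for ITGA6 (library 1, 4, 5 or 8, adjusted p up to 0.0722), ITGB4 (library 1, 7, 5 or 8, adjusted p up to 0.103), PKP2 (library 1, 7, 5 or 8, adjusted p up to 0.107) and GJA1 (library 1, adjusted p 0.0536).

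Collagens were higher in 16 of 32 and lower in 2 (median 0.79), other matrix genes in 26 of 48 and lower in 3 (median 0.97), and matrix proteases with their inhibitors in 19 of 34 and lower in 2 (median 0.90). SPARC, a collagen-binding glycoprotein, measured 9324, 3952 and 4887 FPKM in GFP+mCherry+ and 1374, 1041 and 2105 FPKM in GFP-mCherry+ libraries (1.97 ± 0.39, adjusted p 0.00291). COL3A1, type III collagen, measured 6539, 3976 and 5533 FPKM in GFP+mCherry+ and 1131, 1276 and 1912 FPKM in GFP-mCherry+ libraries (1.90 ± 0.44, adjusted p 0.00728). COL1A2, type I collagen, measured 2179, 1442 and 1918 FPKM in GFP+mCherry+ and 513, 458 and 541 FPKM in GFP-mCherry+ libraries (1.85 ± 0.41, adjusted p 0.00538). These were among the largest gains in FPKM, and the groups did not overlap. THBS1, thrombospondin, measured 171, 175 and 261 FPKM in GFP+mCherry+ and 65.7, 35.5 and 76.5 FPKM in GFP-mCherry+ libraries (1.80 ± 0.31, adjusted p 0.00136). The sheddase ADAM12 measured 13.1, 12.5 and 15.3 FPKM in GFP+mCherry+ and 1.97, 2.53 and 3.19 FPKM in GFP-mCherry+ libraries (2.05 ± 0.32, adjusted p 0.000713). Urokinase, PLAU, measured 17.4, 17.6 and 17.9 FPKM in GFP+mCherry+ and 4.16, 4.82 and 6.30 FPKM in GFP-mCherry+ libraries (1.63 ± 0.30, adjusted p 0.00204). COL2A1, the collagen of cartilage and of embryonic epithelia, was lower at 23.1, 66.7 and 67.0 FPKM in GFP+mCherry+ and 161, 119 and 165 FPKM in GFP-mCherry+ libraries (−1.62 ± 0.30, adjusted p 0.00204). Versican, VCAN, was not called at 117, 193 and 203 FPKM in GFP+mCherry+ and 207, 232 and 151 FPKM in GFP-mCherry+ libraries (−0.22 ± 0.25, adjusted p 0.571). FN1, fibronectin, was listed at 0 in libraries 7 and 8 and is given as no result. Higher genes without 1 library numbered 12 to 15 (library 1, 5, 7 or 8) among other matrix genes and 12 (library 1, 5 or 8) among matrix proteases with their inhibitors.

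Among markers of cell types other than myocytes, those of fibroblasts were higher in 9 of 16 and lower in 1, epicardial and mesothelial markers in 7 of 25 and lower in 1, and epithelial markers in 14 of 27 and lower in none. Endoderm and hepatic markers were higher in 13 of 22, neural and neural crest markers in 4 of 11 (1 lower), endothelial and endocardial markers in 6 of 14 (1 lower), macrophage and blood markers in 2 of 12 and pluripotency markers in 2 of 8. Over all tested genes 12.8% were higher and 9.06% lower, and the macrophage and blood share of 16.7% higher was near the former. The counts of higher markers depended on single libraries. Without 1 library they were 9 (library 4, 5, 7 or 8) for epithelial, 4 to 7 (library 2, 4, 7 or 8) for endoderm, 1 to 2 (library 2, 4 or 8) for neural, 1 to 3 (library 1, 2, 5, 7 or 8) for endothelial, 0 to 4 (library 1, 2, 4, 5 or 8) for macrophage and blood and 4 (library 1) for pluripotency markers. Under either other scaling 3 endothelial markers were higher. Summed over each whole list, fibroblast genes held 9596 to 15464 FPKM in GFP+mCherry+ libraries, 3693 to 4778 FPKM in GFP-mCherry+ libraries and 8264 to 9620 FPKM in GFP-mCherry- libraries. Epicardial genes held 1803 to 2516 FPKM in GFP+mCherry+, 1112 to 1625 FPKM in GFP-mCherry+ and 2958 to 3928 FPKM in GFP-mCherry- libraries, and epithelial genes 2585 to 2687 FPKM in GFP+mCherry+, 1429 to 1858 FPKM in GFP-mCherry+ and 4394 to 4887 FPKM in GFP-mCherry- libraries. For these 3 lists the GFP+mCherry+ sums exceeded those of GFP-mCherry+ cells in every library. For the epicardial and epithelial lists they stayed below the GFP-mCherry- sums. Endoderm genes held 841 to 2022 FPKM in GFP+mCherry+, 278 to 929 FPKM in GFP-mCherry+ and 436 to 696 FPKM in GFP-mCherry- libraries, with overlap between both mCherry+ populations. Neural genes held 429.9 to 769 FPKM in GFP+mCherry+ libraries, 118 to 302 FPKM in GFP-mCherry+ libraries and 107 to 117 FPKM in GFP-mCherry- libraries. Endothelial genes held 105 to 301 FPKM in GFP+mCherry+, 78.2 to 98.5 FPKM in GFP-mCherry+ and 258 to 398 FPKM in GFP-mCherry- libraries. Macrophage and blood genes held 70.3 to 82.5 FPKM in GFP+mCherry+ libraries, 16.2 to 78.4 FPKM in GFP-mCherry+ libraries and 84.4 to 99.9 FPKM in GFP-mCherry- libraries. Pluripotency genes held 20.1 to 38.2 FPKM in GFP+mCherry+ libraries, 13.1 to 25.8 FPKM in GFP-mCherry+ libraries and 43.6 to 51.1 FPKM in GFP-mCherry- libraries. Markers at 0 in every library of a group were NANOG, PRDM14, UTF1 and MYF5 in both mCherry+ populations, FOXD3, MYOD1 and MRC1 in GFP+mCherry+ libraries, SOX1, HBA1, HBA2 and HBG1 in GFP-mCherry+ libraries and HBZ in both. The part of such cells in the other differences was not tested.

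Single markers show the sizes. LUM, a fibroblast proteoglycan, measured 1772, 932 and 1099 FPKM in GFP+mCherry+ and 219, 213 and 341 FPKM in GFP-mCherry+ libraries (2.27 ± 0.43, adjusted p 0.00236). BNC1, an epicardial zinc finger gene, measured 99.3, 51.0 and 64.4 FPKM in GFP+mCherry+ and 30.8, 18.4 and 15.5 FPKM in GFP-mCherry+ libraries (1.69 ± 0.29, adjusted p 0.00139), with a GFP-mCherry- mean of 117 FPKM. CDH1, the epithelial cadherin, measured 194, 122 and 135 FPKM in GFP+mCherry+ and 21.0, 34.9 and 21.1 FPKM in GFP-mCherry+ libraries (2.51 ± 0.29, adjusted p 0.000126). SPINT1, an inhibitor of epithelial proteases, measured 121, 103 and 108 FPKM in GFP+mCherry+ and 31.7, 30.0 and 29.2 FPKM in GFP-mCherry+ libraries (1.83 ± 0.18, adjusted p 4.76e-05), with little spread within either group. AFP, the fetal liver protein, measured 488, 1066 and 995 FPKM in GFP+mCherry+ and 162, 477 and 81.4 FPKM in GFP-mCherry+ libraries (2.11 ± 0.53, adjusted p 0.0109) and varied between libraries of both groups. ALB, albumin, measured 31.9, 109 and 88.4 FPKM in GFP+mCherry+ and 8.40, 34.1 and 2.74 FPKM in GFP-mCherry+ libraries (2.68 ± 0.82, adjusted p 0.0295), and its groups overlapped. PMEL, the pigment matrix protein, measured 193, 637 and 494 FPKM in GFP+mCherry+ and 141, 232 and 53.2 FPKM in GFP-mCherry+ libraries (1.70 ± 0.43, adjusted p 0.0111), with library 2 of the GFP-mCherry+ cells above library 1 of the GFP+mCherry+ cells. KDR, a receptor of vascular endothelial growth factor, measured 214, 27.4 and 52.3 FPKM in GFP+mCherry+ and 12.0, 14.0 and 34.2 FPKM in GFP-mCherry+ libraries (1.85 ± 0.59, adjusted p 0.0358), with library 1 several times libraries 4 and 7 and with overlap. STMN2, a neuronal stathmin, measured 184, 64.6 and 69.5 FPKM in GFP+mCherry+ and 8.15, 18.3 and 20.3 FPKM in GFP-mCherry+ libraries (2.61 ± 0.68, adjusted p 0.0134). NPY, the sympathetic neuropeptide, was not called at 360.0, 14.6 and 35.2 FPKM in GFP+mCherry+ and 6.26, 4.32 and 28.6 FPKM in GFP-mCherry+ libraries (2.49 ± 0.88, adjusted p 0.0534), and library 1 was far above the other libraries. The epicardial factors WT1 at 11.2, 14.1 and 11.5 FPKM in GFP+mCherry+ and 16.7, 9.39 and 2.58 FPKM in GFP-mCherry+ libraries (0.60 ± 0.45, adjusted p 0.361) and TCF21 (0.55 ± 0.34, adjusted p 0.257) were not called. Refits without 1 library lost the call of AFP (library 8, adjusted p 0.0595), ALB (library 4, 7, 2 or 8, adjusted p up to 0.144), PMEL (library 4 or 8, adjusted p up to 0.0526), KDR (library 1, 7, 2 or 5, adjusted p up to 0.168) and STMN2 (library 1 or 2, adjusted p up to 0.0622).

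**Figure D4:**
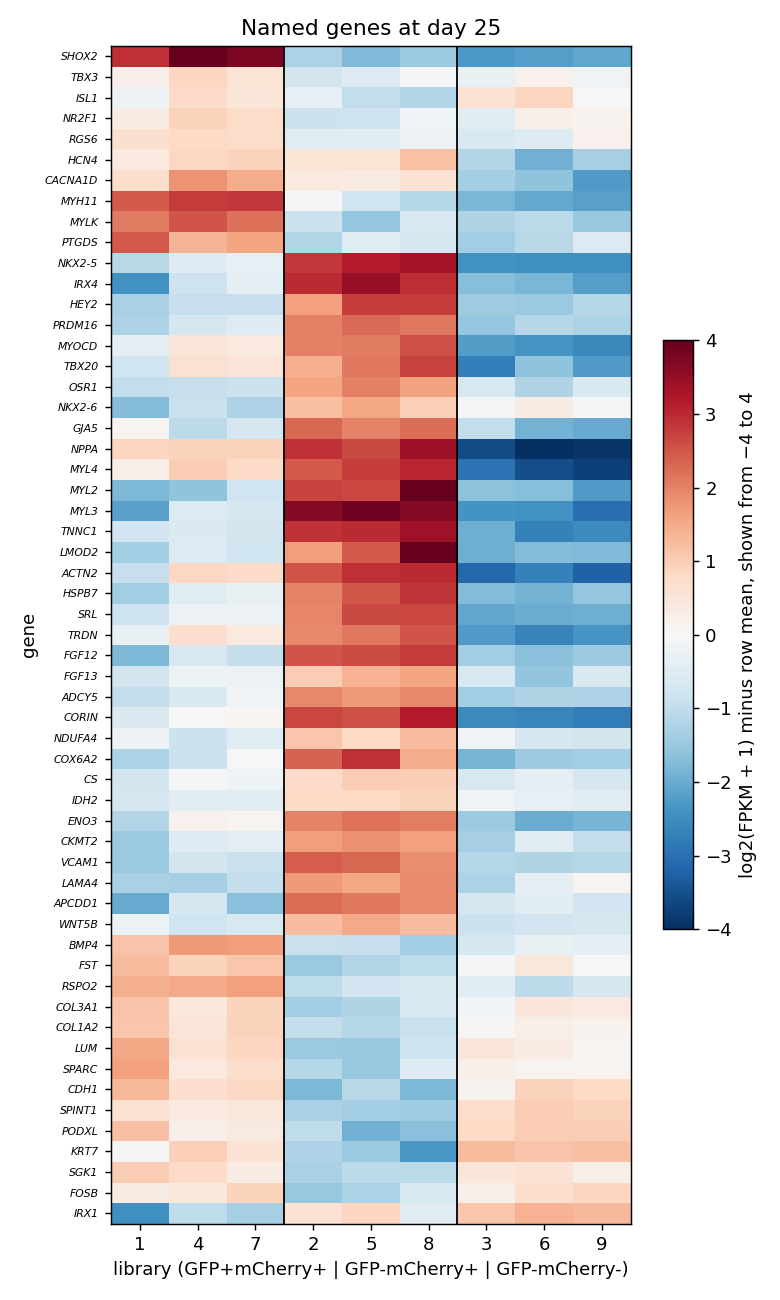
Log2(FPKM + 1) of 57 named genes in the 9 libraries of day 25, each row shown as the distance from the mean of the 9 values, with GFP+mCherry+ libraries on the left, GFP-mCherry+ libraries in the middle and GFP-mCherry- libraries on the right. Sarcomere and energy genes are high in the middle block, SHOX2 and MYH11 are high in the left block, and fibroblast and epithelial genes are high in the left and right blocks.

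Immediate early genes were higher in 19 of 31 and lower in none (median 1.19). SGK1, a kinase induced by serum and glucocorticoids, measured 30.6, 25.5 and 18.0 FPKM in GFP+mCherry+ and 5.30, 6.46 and 6.41 FPKM in GFP-mCherry+ libraries (1.84 ± 0.20, adjusted p 0.000105). FOSB measured 63.3, 70.5 and 95.8 FPKM in GFP+mCherry+ and 17.5, 21.0 and 32.4 FPKM in GFP-mCherry+ libraries (1.68 ± 0.28, adjusted p 0.00115). KLF6 measured 203, 97.0 and 140.4 FPKM in GFP+mCherry+ and 38.8, 30.4 and 75.2 FPKM in GFP-mCherry+ libraries (1.63 ± 0.32, adjusted p 0.00267). Their summed level was 2604 to 4146 FPKM in GFP+mCherry+, 1199 to 2187 FPKM in GFP-mCherry+ and 3495 to 5646 FPKM in GFP-mCherry- libraries. Complement and cytokine genes were higher in 19 of 31 and lower in 1. CXCL16, a chemokine, measured 40.0, 22.1 and 19.3 FPKM in GFP+mCherry+ and 4.52, 4.95 and 6.03 FPKM in GFP-mCherry+ libraries (2.13 ± 0.32, adjusted p 0.000588). C1R, a complement protease, measured 50.3, 15.3 and 18.9 FPKM in GFP+mCherry+ and 5.01, 5.64 and 7.60 FPKM in GFP-mCherry+ libraries (1.87 ± 0.40, adjusted p 0.00473). C3 measured 365, 24.9 and 41.0 FPKM in GFP+mCherry+ and 4.46, 8.08 and 24.2 FPKM in GFP-mCherry+ libraries (2.77 ± 0.78, adjusted p 0.0195), with library 1 far above the others. The 1 lower member was VCAM1. Interferon and antigen presentation genes were higher in 7 of 35 and lower in none, among them IFIT3 at 10.2, 9.53 and 6.94 FPKM in GFP+mCherry+ and 1.63, 1.76 and 1.70 FPKM in GFP-mCherry+ libraries (1.86 ± 0.26, adjusted p 0.000355) and HLA-B at 60.8, 27.2 and 27.8 FPKM in GFP+mCherry+ and 13.8, 8.80 and 10.3 FPKM in GFP-mCherry+ libraries (1.65 ± 0.32, adjusted p 0.00262). Of 27 p53 targets and cell cycle inhibitors 8 were higher, with the inhibitor CDKN1C at 249.8, 162 and 198 FPKM in GFP+mCherry+ and 38.2, 78.5 and 55.7 FPKM in GFP-mCherry+ libraries (1.84 ± 0.45, adjusted p 0.00922) and CDKN2B at 31.4, 36.9 and 40.7 FPKM in GFP+mCherry+ and 12.4, 12.0 and 8.03 FPKM in GFP-mCherry+ libraries (1.68 ± 0.30, adjusted p 0.00175). Cell cycle genes stood below the background in both directions, 2 of 40 higher and 2 lower, and TOP2A, the mitotic topoisomerase, was not called at 17.9, 22.9 and 17.9 FPKM in GFP+mCherry+ and 27.9, 12.5 and 23.8 FPKM in GFP-mCherry+ libraries (−0.06 ± 0.37, adjusted p 0.928). Of the remaining lists, axon guidance genes were higher in 14 of 45 and lower in 4, heat shock genes higher in 2 of 35 and lower in 6, sterol synthesis genes lower in 3 of 28, proteasome subunits lower in 2 of 31, and skeletal muscle markers higher in 1 of 4 and lower in 1. Without 1 library the higher axon guidance genes numbered 7 to 9 (library 5, 7 or 8) and the lower ones 1 to 2 (library 1 or 5), and no proteasome subunit was called. The higher immediate early genes numbered 10 to 12 (library 1, 5 or 7) and the higher interferon and antigen presentation genes 4 (library 5) in such refits. The call was lost without 1 library for C3 (library 1, 2 or 5, adjusted p up to 0.0804).

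HOX genes, which mark position along the body axis, were higher in 10 of 15 and lower in none (median 1.12). HOXC6 measured 9.97, 4.28 and 6.30 FPKM in GFP+mCherry+ and 0.199, 0.640 and 1.70 FPKM in GFP-mCherry+ libraries (2.10 ± 0.63, adjusted p 0.0257). HOXB5 measured 8.16, 5.28 and 7.64 FPKM in GFP+mCherry+ and 2.42, 2.74 and 1.37 FPKM in GFP-mCherry+ libraries (1.35 ± 0.29, adjusted p 0.0046), and HOXB2 was not called at 26.0, 26.0 and 24.9 FPKM in GFP+mCherry+ and 31.1, 28.7 and 18.1 FPKM in GFP-mCherry+ libraries (0.02 ± 0.24, adjusted p 0.97). Of 73 further developmental factors 25 were higher and 10 lower. PITX1, a homeobox gene of limb and pituitary, measured 15.6, 12.3 and 13.8 FPKM in GFP+mCherry+ and 1.09, 3.00 and 4.40 FPKM in GFP-mCherry+ libraries (2.06 ± 0.65, adjusted p 0.0338). MAF measured 25.4, 22.7 and 26.9 FPKM in GFP+mCherry+ and 8.18, 8.47 and 5.05 FPKM in GFP-mCherry+ libraries (1.68 ± 0.27, adjusted p 0.000891). SOX6 measured 15.3, 12.3 and 13.7 FPKM in GFP+mCherry+ and 5.59, 4.37 and 3.61 FPKM in GFP-mCherry+ libraries (1.43 ± 0.23, adjusted p 0.00102). Each lay above the GFP-mCherry+ libraries without overlap. Without 1 library 4 to 6 (library 1, 4, 7 or 8) HOX genes were called higher, and of the further factors 13 to 16 (library 2, 4, 5, 7 or 8) were higher and 5 to 6 (library 1, 5, 7 or 8) lower. Leaving out 1 library ended the call of HOXC6 (library 1, 7, 2 or 5, adjusted p up to 0.0904) and PITX1 (library 1, 4, 7, 2 or 5, adjusted p up to 0.118).

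The title of the study names anthracyclines, and 36 genes of their targets, transport and metabolism were split, 7 higher and 10 lower (median 0.02). TOP2B, the topoisomerase through which doxorubicin damages heart muscle in mouse, was not called at 53.4, 71.8 and 58.9 FPKM in GFP+mCherry+ and 77.8, 76.8 and 67.7 FPKM in GFP-mCherry+ libraries (−0.28 ± 0.16, adjusted p 0.218). CBR1, a carbonyl reductase that turns doxorubicin into its alcohol, measured 3.02, 3.87 and 2.77 FPKM in GFP+mCherry+ and 6.54, 6.04 and 5.57 FPKM in GFP-mCherry+ libraries (−0.75 ± 0.21, adjusted p 0.0197). AKR1B1, an aldo-keto reductase, measured 44.3, 50.9 and 47.5 FPKM in GFP+mCherry+ and 121, 116 and 183 FPKM in GFP-mCherry+ libraries (−1.51 ± 0.19, adjusted p 0.000177). Both reductases were lower, whereas the family members AKR1B10 (2.14 ± 0.66, adjusted p 0.0296) and AKR1C1 (1.34 ± 0.41, adjusted p 0.029) were higher. The efflux pump gene ABCG2 measured 2.65, 9.99 and 1.92 FPKM in GFP+mCherry+ and 0.379, 0.531 and 0.877 FPKM in GFP-mCherry+ libraries (1.63 ± 0.40, adjusted p 0.0105). The superoxide dismutase of mitochondria, SOD2, measured 36.9, 48.2 and 38.3 FPKM in GFP+mCherry+ and 82.8, 103 and 109.7 FPKM in GFP-mCherry+ libraries (−1.24 ± 0.25, adjusted p 0.00361). RARG, the retinoic acid receptor linked to anthracycline cardiotoxicity, was not called at 13.6, 19.9 and 20.8 FPKM in GFP+mCherry+ and 13.2, 14.8 and 11.7 FPKM in GFP-mCherry+ libraries (0.41 ± 0.25, adjusted p 0.266). Of 19 iron genes 6 were higher and 3 lower. HAMP, hepcidin, the hormone that degrades the iron exporter, measured 1.96, 3.19 and 3.95 FPKM in GFP+mCherry+ and 22.9, 71.0 and 148 FPKM in GFP-mCherry+ libraries (−4.01 ± 0.73, adjusted p 0.00193). SLC40A1, that exporter, measured 280.0, 65.3 and 95.0 FPKM in GFP+mCherry+ and 15.7, 24.0 and 47.9 FPKM in GFP-mCherry+ libraries (2.15 ± 0.55, adjusted p 0.0117). The hormone was lower and the exporter higher. FTL, ferritin light chain, measured 995, 1072 and 973 FPKM in GFP+mCherry+ and 438, 583 and 434 FPKM in GFP-mCherry+ libraries (1.07 ± 0.19, adjusted p 0.00146), and FTH1, its heavy chain, was not called at 279.8, 258 and 219 FPKM in GFP+mCherry+ and 211, 246 and 295 FPKM in GFP-mCherry+ libraries (0.01 ± 0.21, adjusted p 0.967). Without 1 library 6 (library 1 or 7) of the anthracycline genes were lower. Calls that did not hold without 1 library were those of CBR1 (library 1, 7, 2 or 5, adjusted p up to 0.076), AKR1B10 (library 1, 2, 5 or 8, adjusted p up to 0.14), AKR1C1 (library 1, 7, 2, 5 or 8, adjusted p up to 0.109) and SLC40A1 (library 1, adjusted p 0.0584).

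The GFP-mCherry- level sorts the called genes into classes. Of the 1795 genes higher in GFP+mCherry+ cells, 631 (35.2%) were higher still in GFP-mCherry- cells, 1044 (58.2%) lay between both mCherry+ means there, and 120 (6.69%) were lower there than in either. Of the 1271 lower genes, 682 (53.7%) were lower still in GFP-mCherry- cells, 522 (41.1%) lay between and 67 (5.27%) were highest there. Over all tested genes these shares were 38.5% above both, 31.9% between and 29.7% below both. Genes were called for a gap between both mCherry+ means, so a larger share between them is partly fixed by the calling. Among the 120 genes with their highest mean in GFP+mCherry+ and their lowest in GFP-mCherry- cells, SHOX2, MYH11 and MYLK had the largest differences. These genes also included PTGDS, prostaglandin D synthase, at 701, 327 and 383 FPKM in GFP+mCherry+ and 56.6, 91.8 and 79.1 FPKM in GFP-mCherry+ libraries (2.56 ± 0.40, adjusted p 0.000778, GFP-mCherry- mean 64.6 FPKM), and LCNL1 at 11.5, 13.0 and 15.6 FPKM in GFP+mCherry+ and 0.900, 2.80 and 1.10 FPKM in GFP-mCherry+ libraries (2.53 ± 0.47, adjusted p 0.00205). The class of 67 genes that were lowest in GFP+mCherry+ cells and highest in GFP-mCherry- cells included IRX1, an Iroquois gene, at 1.08, 4.60 and 3.55 FPKM in GFP+mCherry+ and 15.8, 19.4 and 7.20 FPKM in GFP-mCherry+ libraries (−1.91 ± 0.42, adjusted p 0.00538, GFP-mCherry- mean 26.3 FPKM). ENG, a TGF-beta coreceptor, measured 2.53, 8.08 and 8.20 FPKM in GFP+mCherry+ and 13.0, 19.5 and 28.8 FPKM in GFP-mCherry+ libraries (−1.62 ± 0.45, adjusted p 0.0181). MDK, the growth factor midkine, measured 410.4, 485 and 408 FPKM in GFP+mCherry+ and 1376, 1094 and 888 FPKM in GFP-mCherry+ libraries (−1.35 ± 0.27, adjusted p 0.00314). HMGN2, a nucleosome-binding protein, measured 70.0, 70.7 and 64.1 FPKM in GFP+mCherry+ and 198, 125 and 139.7 FPKM in GFP-mCherry+ libraries (−1.14 ± 0.22, adjusted p 0.0024). Among genes higher in GFP+mCherry+ and highest in GFP-mCherry- cells were KRT7 at 35.2, 73.3 and 56.0 FPKM in GFP+mCherry+ and 15.5, 12.7 and 6.70 FPKM in GFP-mCherry+ libraries (2.15 ± 0.57, adjusted p 0.014), PODXL at 333, 166 and 182 FPKM in GFP+mCherry+ and 69.7, 37.1 and 43.8 FPKM in GFP-mCherry+ libraries (2.13 ± 0.33, adjusted p 0.000698) and SELV at 58.2, 28.0 and 25.4 FPKM in GFP+mCherry+ and 0.844, 0.505 and 0.407 FPKM in GFP-mCherry+ libraries (4.50 ± 1.21, adjusted p 0.016). Refits that left out 1 library ended the call of ENG (library 1, 5 or 8, adjusted p up to 0.0876), KRT7 (library 4 or 8, adjusted p up to 0.0655) and SELV (library 1, adjusted p 0.0567).

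The same sort at day 40, in other libraries, asked whether the difference held later in culture. At day 40, 2124 genes (15.1%) were higher and 1346 (9.6%) lower. Of the day 25 calls, 1226 of 1795 higher genes (68.3%) and 783 of 1271 lower genes (61.6%) were called in the same direction at day 40, which were 57.7% and 58.2% of the day 40 calls. The sign agreed in 98.0% of the higher and 96.9% of the lower genes. The single gene called in opposite directions was LRRK2, a kinase gene, at 0.439, 0.367 and 0.302 FPKM in GFP+mCherry+ and 0.927, 1.20 and 1.16 FPKM in GFP-mCherry+ libraries (−0.61 ± 0.18, adjusted p 0.0264). At day 40 it measured 1.50 and 2.44 FPKM in GFP+mCherry+ libraries 10 and 13, against 0.871, 0.979 and 0.723 FPKM in GFP-mCherry+ libraries 11, 14 and 17 (0.66 ± 0.20, adjusted p 0.0272). A test of the change of the difference between the days called none of the 14022 genes with limma, with 783 at an unadjusted p under 0.05 and a smallest adjusted p of 0.329. SELV, with the next largest positive difference at day 25 after SHOX2, measured 1.71 and 0.230 FPKM in GFP+mCherry+ libraries 10 and 13 at day 40, against 0.406, 28.6 and 0.0837 FPKM in GFP-mCherry+ libraries 11, 14 and 17 (−0.96 ± 1.36, not called), with library 14 far above the others. SHOX2 kept a difference of 4.70 ± 0.36 and NKX2-5 of −3.35 ± 0.61. VCAM1 was at −2.41 ± 0.35, APCDD1 at −2.46 ± 0.34 and LAMA4 at −1.66 ± 0.31, each nearer to 0 than at day 25 and each called. NR2F1 and SLN were called at day 25 and not at day 40, with day 40 differences of −0.24 ± 0.32 for NR2F1 and 0.02 ± 0.68 for SLN, and the change between the days was not called for either. Without library 13 of day 40 the calls of that day fell to 749 higher and 210 lower. The change between days called 1, 3 and 10 genes without library 1, 8 and 10, and 44 genes with no filter on low values. Without 1 library the call ended for LRRK2 (library 4, 7, 5 or 8, adjusted p up to 0.0868).

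**Figure D5:**
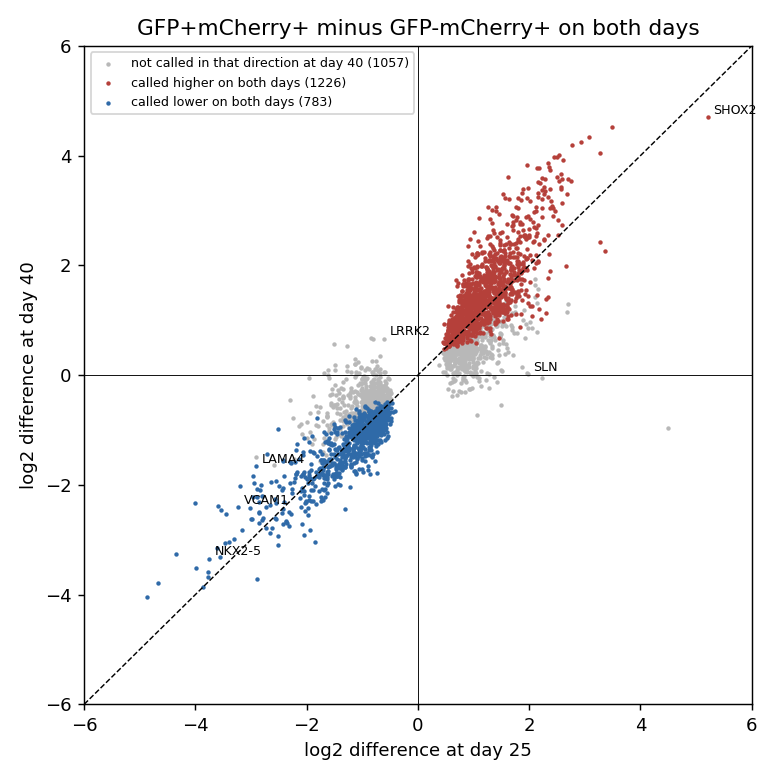
Log2 difference between GFP+mCherry+ and GFP-mCherry+ cells at day 25 (horizontal axis) and at day 40 (vertical axis) for the 3066 genes called at day 25, with the diagonal as a dashed line. Genes called in the same direction at day 40 are in colour, and most points lie in the quadrants of equal sign.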

How the data were processed

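RNA-seq was made from 17 libraries of sorted cells, and the deposited table gives 1 value per gene and library. The FPKM values were made by the authors with bcl2fastq 2.19, cutadapt, STAR 2.5.2b and Cufflinks 2.1.1 on hg19, per the submitters' processing notes. That the values are FPKM was read from the table and these tools. Of 20368 rows, only the row with the highest mean over the libraries was kept for each gene symbol, which left 20218 genes. No counts or depths were used, so no counting interval can be given, and no count test was run.

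Log2(FPKM + 1) was fitted with limma 3.58.1 in R 4.3.3, with 6 group means over all 17 libraries, a trend in the variance and Benjamini-Hochberg adjustment over 14022 genes. A gene was called at an adjusted p under 0.05. The fit was tested on simulated data. The named genes are anchors, the largest differences, and the members of each list with the smallest adjusted p or, if not called, the highest level. Further list members, and LRRK2, were picked for their roles after their values were seen. The members and lists were chosen with earlier results of these data known. Some genes that the rule names are not reported here.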

Additional observations from a re-analysis of the deposited data

How the results depend on the processing

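Over the alternative scalings, filters, pseudocount and fits, the calls of day 25 ranged widest with sample quality weights, which gave 4261 higher and 3273 lower genes. Without 1 library they ranged from 1065 to 1415 higher and from 725 to 1057 lower. At day 40 they ranged from 749 to 2389 higher and from 210 to 1536 lower. The change between the days was called in 0 to 10 genes without 1 library and in 44 genes with no filter on low values. The cause was not tested. A fit with sets of consecutive library numbers as a replicate block gave 2092 higher and 1520 lower genes. The labels do not say that these numbers pair the samples, and libraries of 1 set deviated together with r of 0.0025, 0.268 and −0.0745, so the block is no part of the results. Of 191 named genes, 159 were called. Of these, 38 lost the call without at least 1 library, 17 lost it under at least 1 other alternative, and 120 kept it in every refit. Of 32 named genes not called, 15 were called in at least 1 refit. None of the named genes that were called changed sign in a refit. The number of called members moved by over 1.5 times in 320 of 1632 list refits. Of 30 counts of 1 to 3 members, 22 moved by over 1.5 times without 1 library. Without depths, how far low values are limited by counting cannot be given.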
